A study of Homo sapiens with 5 samples.

Results

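Oxidative phosphorylation subunit genes are the nuclear genes for the protein subunits of the 5 enzyme complexes of the inner mitochondrial membrane. They were chosen by gene symbol alone: NDUFA, NDUFB, NDUFC, NDUFS or NDUFV with a digit for complex I, SDHA to SDHD for complex II, names beginning UQCR for complex III, COX4 to COX8 names for complex IV and names beginning ATP5 for complex V. The rule found 87 of the 18637 protein-coding genes in the deposited expression table, 37 for complex I, 4 for complex II, 9 for complex III, 17 for complex IV and 20 for complex V. The rule itself used no measured value, but it was set with earlier results of these data known. NDUFA4 is now listed by RefSeq as COXFA4 and lies outside the rule, as do cytochrome c1 (CYC1) and the mitochondrially encoded subunits.

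The study asked how the lysine demethylase LSD1, the product of KDM1A, acts in androgen signalling, using LNCaP and VCaP, both established lines from prostate cancer. It had 5 samples, 1 per group. RNA-seq was done on LNCaP cells transfected with LSD1 siRNA and on LNCaP cells transfected with control siRNA, while chromatin immunoprecipitation with sequencing (ChIP-seq) was done on untransfected cells, with antibodies against LSD1 (LNCaP and VCaP) and against H3T6ph, histone H3 with phosphate on threonine 6 (LNCaP). All cells spent 3 days on charcoal-stripped serum, which is low in steroids, ahead of a hormone stimulus that the labels do not name. With 1 library per group no difference below has a replicate check and no test was possible. Each siRNA arm is a single culture of an established line, so the effect of the siRNA and a difference between cultures cannot be told apart.

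Oxidative phosphorylation passes electrons from NADH and succinate through complexes I to IV to oxygen, pumps protons out of the mitochondrial matrix, and lets them return through ATP synthase (complex V). Complexes I, III, IV and V combine subunits encoded in the nucleus with a small set encoded in mitochondrial DNA, and complex II is wholly nuclear. Many nuclear subunit genes have short, GC-rich promoters with sites for NRF1, ETS factors such as GABP, YY1 and SP1. Prostate luminal cells are known for a truncated citric acid cycle that secretes citrate, a state that changes in prostate cancer.

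Expression is given as FPKM (fragments counted, scaled to transcript length and library size), summed over the RefSeq accessions of a gene. A gene was counted as measured at 1 FPKM or more in either library, and differences are LSD1 siRNA over control siRNA on the log2(FPKM + 1) scale, which understates the change of low genes. KDM1A, the targeted gene, was at 6.87 FPKM with LSD1 siRNA and 37.0 FPKM with control siRNA, a log2 difference of -2.27. The cell-type check showed luminal epithelium: all 10 luminal markers were measured, with a summed level of 4417 FPKM with LSD1 siRNA and 5649 FPKM with control siRNA. Of the lists for other cell types, 1 of 6 basal, 2 of 6 neuroendocrine, 2 of 7 fibroblast and smooth muscle, 1 of 5 immune and 1 of 3 endothelial markers were measured. COL1A2, CD3E and CDH5 were at 0 in both libraries. The neuroendocrine sum was 242 FPKM with LSD1 siRNA and 188 FPKM with control siRNA, and each of the other sums was at most 16.2 FPKM. The part of these marker shifts in any value below was not tested. In bulk RNA, fewer cells of a type and less RNA per cell cannot be told apart.

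The RefSeq promoters of 4 members (GRCh38.p14) are shown as examples of sequence features that the symbol rule did not use. All 4 hold NRF1 or ETS letters, whereas only 14 of 70 members with a promoter hold the NRF1 letters and 12 the ETS letters. NDUFS7 had the highest log2 difference of the measured members after LSD1 siRNA, and UQCR11 had the best-ranked peak of LSD1 in VCaP. COX8A had an H3T6ph peak at its start, and COX5B holds both the NRF1 and the ETS letters. Each is the 150 bases before the annotated start, 5′ to 3′ on the gene's strand, with capitals marking GCGCATGC (searched as NRF1) or CCGGAAGT (searched as ETS) on either strand. They lie at chr19:1383757-1383906 (plus strand) for NDUFS7, chr19:1605463-1605612 (minus strand) for UQCR11, chr11:63974470-63974619 (plus strand) for COX8A and chr2:97645912-97646061 (plus strand) for COX5B.
NDUFS7: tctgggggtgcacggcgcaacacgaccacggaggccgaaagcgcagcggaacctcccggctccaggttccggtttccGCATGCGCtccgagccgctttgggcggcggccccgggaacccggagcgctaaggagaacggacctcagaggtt
UQCR11: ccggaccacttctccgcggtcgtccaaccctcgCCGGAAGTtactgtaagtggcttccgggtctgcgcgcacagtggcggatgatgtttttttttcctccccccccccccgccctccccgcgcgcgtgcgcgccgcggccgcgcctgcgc
COX8A: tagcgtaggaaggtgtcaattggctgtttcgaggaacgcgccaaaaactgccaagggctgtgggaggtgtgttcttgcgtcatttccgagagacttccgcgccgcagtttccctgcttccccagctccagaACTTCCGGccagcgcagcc
COX5B: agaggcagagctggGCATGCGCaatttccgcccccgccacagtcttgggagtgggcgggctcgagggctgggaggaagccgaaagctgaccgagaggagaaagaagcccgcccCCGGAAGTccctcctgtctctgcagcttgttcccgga
NDUFS7 carries the NRF1 letters from base -73, counted back from the start, and UQCR11 carries the ETS letters from base -117. COX8A has the ETS letters from base -19, and COX5B has the NRF1 letters from base -136 and the ETS letters from base -37, with a second ETS match from base -5 that crosses the start and so is cut short in the sequence shown.

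Of the 87 members, 70 were matched by symbol to RefSeq promoters of 250 bases before to 50 after the start. The NRF1 letters were in the promoters of 14 members (20%), against 6.62% of 9721 measured protein-coding genes with a promoter. The YY1 letters, AAGATGGC, were in 12 members (17.1%), against 6.70%. The ETS letters were in 12 members (17.1%), against 10.5%, and their core CCGGAA in 31 members (44.3%), against 35.9%. At least 1 of NRF1, ETS or YY1 was in 31 members (44.3%), against 21.5% of measured genes. The SP1 letters, GGGCGG, were less frequent in members, at 64.3% against 77.2%, and the median GC content was 60% in members against 64.7%. A gene counted if any of its promoters held the letters, and members had fewer promoters per gene. They had 83 promoters for 70 genes, against 14138 for 9721 measured genes. Per promoter the SP1 shares were closer, at 62.7% and 66.1%. They were 18.1% and 4.89% for NRF1 and 15.7% and 4.89% for YY1. For ETS they were 14.5% and 7.75%, and for its core 38.6% and 27.6%.

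The letters also differed in where they lay. Every match of NRF1 (14 members) and ETS (12 members) began before the start, and those of NDUFA8 for NRF1 ran across it, whereas 10 of the 12 members with YY1 had a match that began after the start. The TATA box letters, TATAAA, were in 7 members (10%), against 8.31% of measured genes. TCAAGGTCA, searched for the estrogen-related receptors (ERR), was in SDHD alone among members (1.43%), against 0.226%. Both strands were searched, the ETS core lies inside the longer ETS letters, and a match is a description of sequence and not a site in use.

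**Figure D1:**
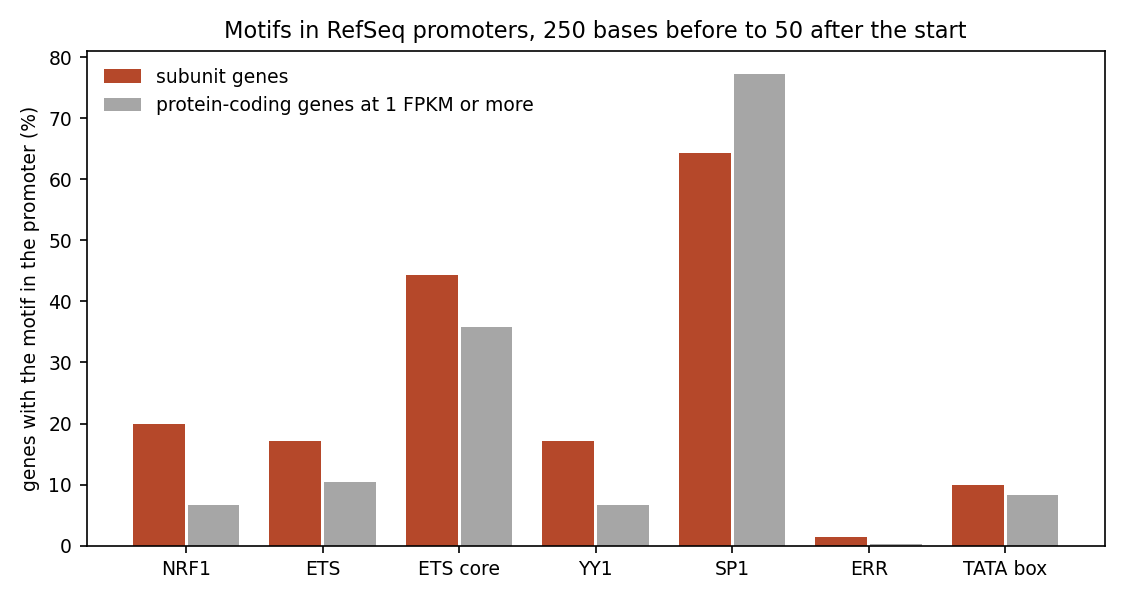
Share of genes (%) whose RefSeq promoter holds each set of letters, for oxidative phosphorylation subunit genes (red, 70 genes) and measured protein-coding genes (grey, 9721 genes). The red bars exceed the grey ones for NRF1 (20% against 6.62%) and YY1 (17.1% against 6.70%), and are lower for SP1 (64.3% against 77.2%). A gene counts if any of its promoters holds the letters, and per promoter the SP1 shares were 62.7% and 66.1%.

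The starts of 23 of the 70 members (32.9%) had another protein-coding gene starting within 1 kb in the opposite direction, against 17.3% of measured protein-coding genes. ATP5PF, a subunit of the peripheral stalk of ATP synthase, started 68 bases from GABPA, the gene for the DNA-binding subunit of the ETS factor GABP. ATP5PF was at 134 FPKM with LSD1 siRNA and 139 FPKM with control siRNA, a log2 difference of -0.05, while GABPA was at 12.4 and 15.2 FPKM, a log2 difference of -0.28. ATP5F1A, the alpha subunit of ATP synthase, started 158 bases from HAUS1, a subunit of the augmin complex of the spindle. Their log2 differences were -0.19 for ATP5F1A and -0.44 for HAUS1. Values of such pairs were not always on the same side of 0: ATP5MK was at a log2 difference of 0.11 and its neighbour PDCD11 at -0.26. The RNA kit does not mark strand, so reads in any overlap of such pairs cannot be told apart.

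The members were among the most abundant transcripts of these cells. Of the 87, 79 were measured, and their median level was 109 FPKM with LSD1 siRNA and 106 FPKM with control siRNA, against 12.9 FPKM with LSD1 siRNA and 13.2 FPKM with control siRNA over 11753 measured protein-coding genes. In the control library 67 of 79 members (84.8%) reached 50 FPKM, against 14.2% of protein-coding genes, and 43 (54.4%) reached 100 FPKM, against 5.99%. COX7C, a small subunit of complex IV, had the highest level, 1225 FPKM with LSD1 siRNA and 1227 FPKM with control siRNA. It was followed by NDUFB4 of complex I, at 645 FPKM with LSD1 siRNA and 716 FPKM with control siRNA, and the ATP synthase subunits ATP5F1B and ATP5F1E. At the low end of the measured subunit genes, apart from a readthrough gene, were NDUFA10 of complex I, at 13.5 and 13.7 FPKM, and COX7B2 of complex IV, at 6.94 and 6.61 FPKM. The median level per complex was highest for complex IV, at 292 FPKM with LSD1 siRNA and 313 FPKM with control siRNA, and lowest for complex II, at 49.0 and 47.8 FPKM.

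**Figure D2:**
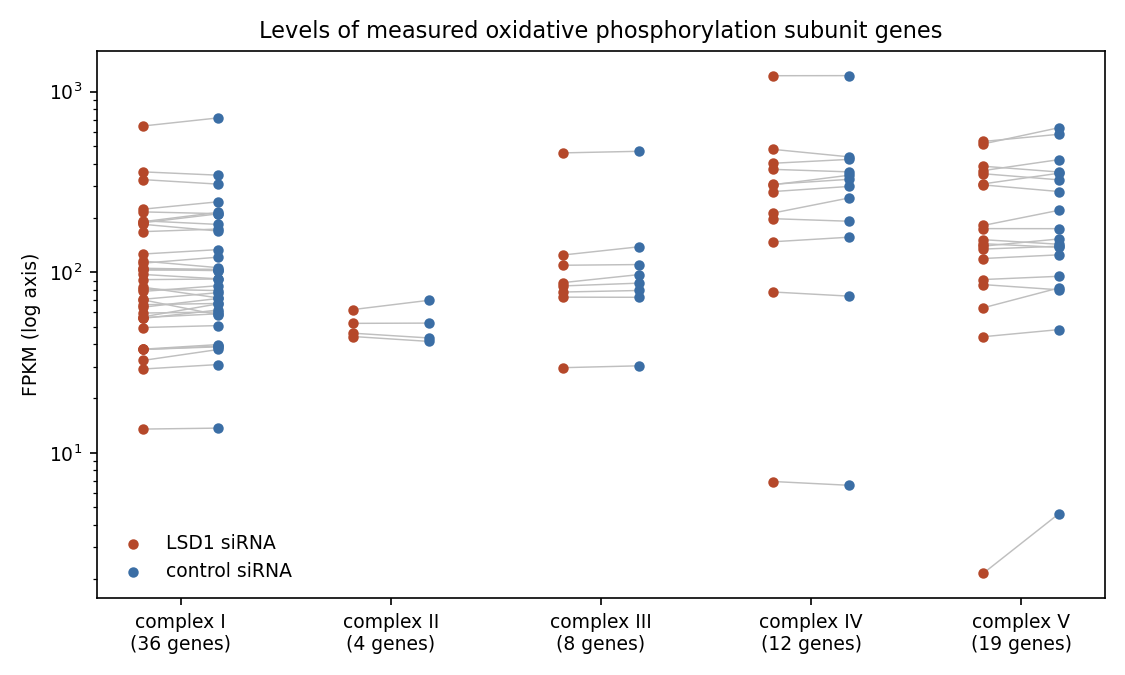
Level of each measured subunit gene (FPKM, log axis) by complex, with LSD1 siRNA (red) and control siRNA (blue) joined by a line for each gene. Most genes lie above 20 FPKM and the lines are close to flat, and the steepest is the readthrough gene ATP5MF-PTCD1 at 2.15 FPKM with LSD1 siRNA and 4.61 FPKM with control siRNA.

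After LSD1 siRNA the members were close to their control levels. Of 79 measured members, 0 were higher by 1.5-fold after LSD1 siRNA, against 1.04% of measured protein-coding genes, and 1 was lower by 1.5-fold, against 1.18%. None was past 2-fold in either direction, against 0.111% of protein-coding genes higher and 0.128% lower. No member (0 of 79) had an accession called changed in the authors' deposited table, against 0.978% of measured protein-coding genes. Counts of 0 and 1 among 79 are near these background rates and are not a result about the members.

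The 1 gene lower by 1.5-fold, ATP5MF-PTCD1, is a readthrough gene whose transcript joins ATP5MF to the neighbouring PTCD1. It was at 2.15 FPKM with LSD1 siRNA and 4.61 FPKM with control siRNA, a log2 difference of -0.83. Its exons are shared with ATP5MF, which was at 304 and 280 FPKM, so the value rests on how the authors' program divided shared fragments. Without it the 78 remaining measured members had log2 differences between -0.36 and 0.27.

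The log2 differences of members were less spread than those of protein-coding genes above the same minimum level, a set whose own levels were lower. Of 76 members at 20 FPKM or more in the control library, 69 (90.8%) lay within 0.2 of 0 on the log2 scale, against 70.9% of 4226 protein-coding genes above that minimum. Their SD over genes was 0.120, against 0.217. The median control levels of these sets were 116 and 39.3 FPKM, so the contrast is not matched for level. More members were lower than higher after LSD1 siRNA: 52 of 79 (65.8%) had a value below 0, against 52.9% of all measured protein-coding genes and 56.5% of those at 20 FPKM or more. The median log2 difference was -0.05 over the members, against -0.01 over all measured protein-coding genes and -0.03 over those at 20 FPKM or more. Summed over the members, the level was 13875 FPKM with LSD1 siRNA and 14377 FPKM with control siRNA. Many of these genes have processed pseudogenes, and how reads were divided between copies is not stated, so single values are uncertain to that extent.

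**Figure D3:**
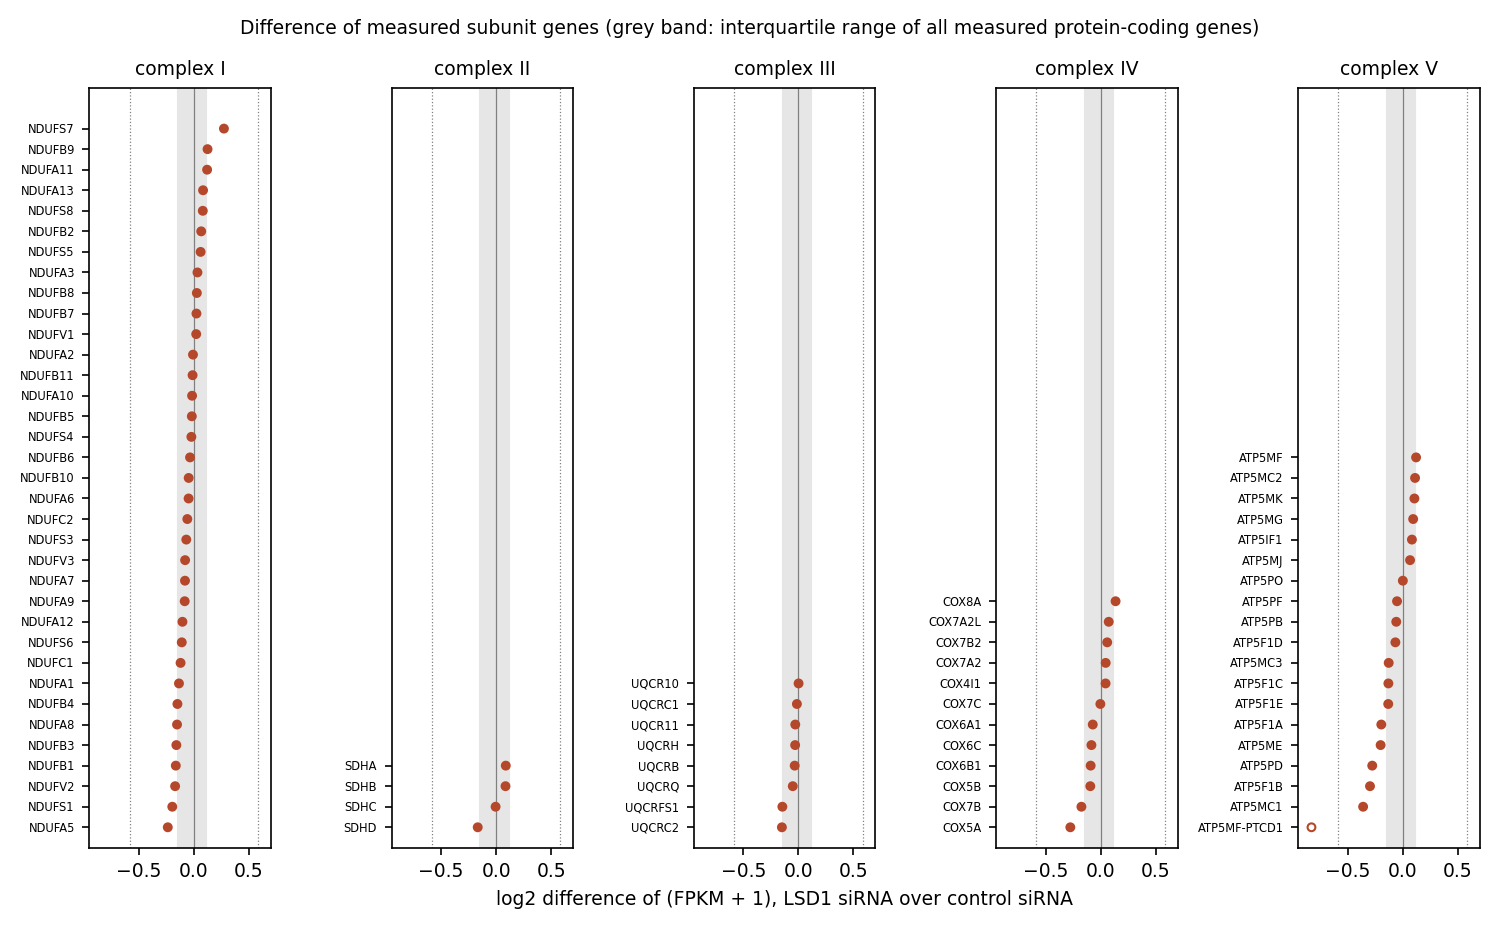
Log2 difference of (FPKM + 1), LSD1 siRNA over control siRNA, for 78 of the 79 measured subunit genes, the readthrough gene included (1 other is not reported here), sorted within their complexes. The grey band is the interquartile range of all measured protein-coding genes (-0.14 to 0.11), the dotted lines mark 1.5-fold, and the open circle is the readthrough gene ATP5MF-PTCD1, the single gene beyond a dotted line.

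Complex I, which takes electrons from NADH, had 36 measured members with a median log2 difference of -0.04, 24 lower and 12 higher. Its catalytic core, the subunits that hold the flavin and iron-sulfur clusters, covered a wide range for a set of 7 genes, with an SD of 0.178 against 0.0905 for the 29 other complex I genes. NDUFS7, an iron-sulfur subunit next to the quinone site, was at 70.4 FPKM with LSD1 siRNA and 58.1 FPKM with control siRNA, a log2 difference of 0.27. On the other side of 0 were NDUFS1 and NDUFV2, which also hold iron-sulfur clusters. NDUFS1 was at 32.5 FPKM with LSD1 siRNA and 37.4 FPKM with control siRNA, a log2 difference of -0.20, and NDUFV2 was at 190 and 215 FPKM, a log2 difference of -0.17. NDUFV1, which binds NADH itself, was at 104 and 102 FPKM.

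Of the 29 other measured complex I genes, mostly supernumerary subunits that surround the core, 21 were lower and 8 higher, with a median of -0.05. NDUFA5 had the lowest value of complex I, at 56.6 FPKM with LSD1 siRNA and 66.9 FPKM with control siRNA, a log2 difference of -0.24. NDUFB9 had the highest of these 29, at 184 and 169 FPKM, a log2 difference of 0.12. NDUFB4 and NDUFS5, the most abundant complex I transcripts, were on opposite sides of 0, with log2 differences of -0.15 and 0.06.

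NDUFC1, a small membrane subunit of complex I, differed little as a gene but more as transcripts. Its summed level was 70.8 FPKM with LSD1 siRNA and 77.1 FPKM with control siRNA, a log2 difference of -0.12. Accession NM_001184987 was at 8.47 FPKM with LSD1 siRNA and 38.1 FPKM with control siRNA, whereas NM_001184990 was at 55.5 and 25.7 FPKM. The share of NM_001184990 in the gene was thus 45.0 percentage points higher with LSD1 siRNA, the largest shift among the 16 members with at least 2 accessions at 5 FPKM or more. In the authors' deposited table NM_001184987 had the lowest p-value of the 150 accessions of members, 0.00488, with a q-value of 0.256. It was the 1 accession of a member with a p-value under 0.05 there, and the q-values of the other 149 were at or near 1. Levels of accessions that share most of their exons are the program's estimates and rest on few distinguishing fragments.

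**Figure D4:**
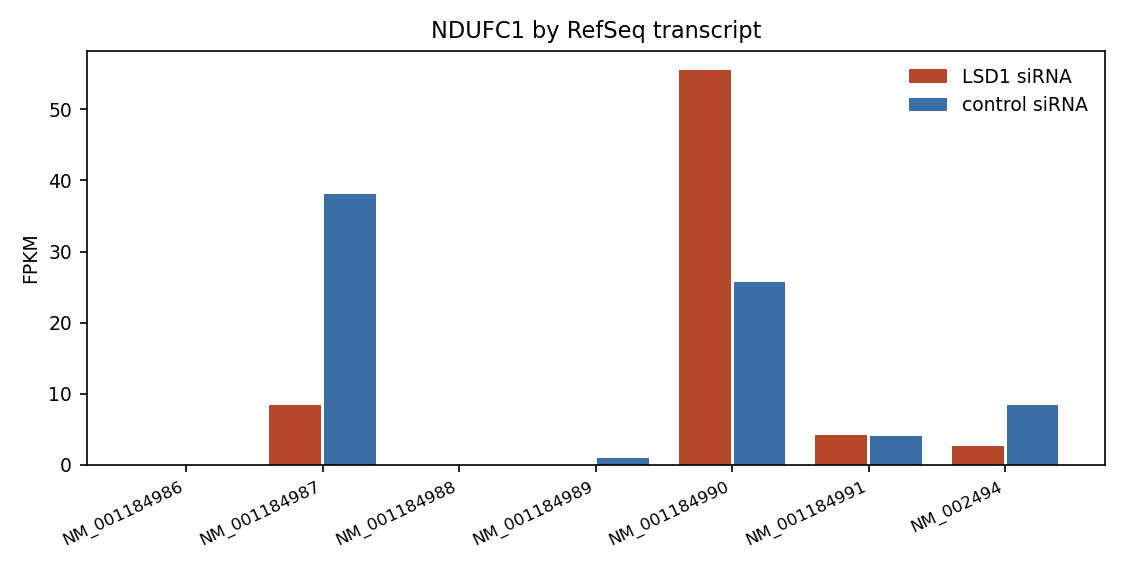
FPKM of the RefSeq transcripts of NDUFC1 with LSD1 siRNA (red) and control siRNA (blue), 1 library each. NM_001184987 is lower with LSD1 siRNA (8.47 against 38.1 FPKM) and NM_001184990 higher (55.5 against 25.7 FPKM), while the sum is 70.8 with LSD1 siRNA and 77.1 with control siRNA.

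Complex II, which oxidises succinate and also works in the citric acid cycle, had all 4 genes measured. SDHA, the flavoprotein, was at 44.1 FPKM with LSD1 siRNA and 41.4 FPKM with control siRNA, and SDHB, the iron-sulfur subunit, at 46.0 and 43.3 FPKM. Both had a log2 difference of 0.09. Of the membrane anchors, SDHC was at 52.1 and 52.3 FPKM, and SDHD was at 62.1 and 69.9 FPKM, a log2 difference of -0.17. Both catalytic genes were therefore slightly higher, SDHC was level (log2 difference -0.005) and SDHD was slightly lower, all well inside 1.5-fold.

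Complex III, which moves electrons from ubiquinol to cytochrome c, had the tightest values. Its 8 measured genes lay between -0.15 and 0.00 on the log2 scale, with an SD of 0.0585 and 7 of 8 below 0. The 2 lowest were UQCRC2, a core protein, at 125 FPKM with LSD1 siRNA and 138 FPKM with control siRNA, and UQCRFS1, the Rieske iron-sulfur protein, at 87.6 and 97.0 FPKM. The other core protein, UQCRC1, was at 109 and 110 FPKM. UQCRH, the hinge protein, was the most abundant at 458 and 467 FPKM, and UQCRB, a quinone-binding subunit, the least at 29.6 and 30.3 FPKM. UQCRQ was at 84.0 and 87.0 FPKM, UQCR11 at 77.7 and 79.2 FPKM, and UQCR10 at 72.8 and 72.7 FPKM.

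Complex IV, cytochrome c oxidase, hands the electrons to oxygen, and its nuclear members surround a catalytic core made in the mitochondrion. Of 12 measured genes 7 were lower and 5 higher, with a median of -0.04. COX5A had the lowest value, at 213 FPKM with LSD1 siRNA and 258 FPKM with control siRNA, a log2 difference of -0.27. COX7B was at 305 and 344 FPKM (-0.17) and COX5B at 280 and 299 FPKM (-0.09). COX8A was highest, at 479 FPKM with LSD1 siRNA and 436 FPKM with control siRNA, a log2 difference of 0.14. COX7A2L, which takes part in joining complexes into supercomplexes, was at 77.7 and 73.8 FPKM, a log2 difference of 0.07. COX5A and COX8A, at the ends of this range, still differed from control by less than 1.5-fold.

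Complex IV and some other subunits exist as a common form and a form restricted to certain tissues, such as muscle, lung or testis. LNCaP cells carried the common forms. COX4I1, COX6A1, COX6B1, COX7A2, COX7B, COX8A and UQCRH lay between 198 and 479 FPKM with LSD1 siRNA and between 192 and 467 FPKM with control siRNA. Of their counterparts, COX4I2 was listed at 0 in both libraries, and COX6A2, COX6B2, COX7A1 and COX8C were each under 1 FPKM in both. UQCRHL, paired with UQCRH by name and not shown to be a tissue form, was also under 1 FPKM in both. How reads were divided between UQCRHL and UQCRH is not stated. COX7B2, a form known from testis, was the exception among members, at 6.94 FPKM with LSD1 siRNA and 6.61 FPKM with control siRNA. The remaining unmeasured members were ATP5MGL, at 0.395 and 0.254 FPKM, and the readthrough gene NDUFC2-KCTD14, at 0.559 and 0.531 FPKM. A pair outside the rule ran the other way: COXFA4L2, formerly NDUFA4L2 and known as a hypoxia-induced gene, was at 569 FPKM with LSD1 siRNA and 516 FPKM with control siRNA, above its common form COXFA4, formerly NDUFA4, at 83.7 and 85.7 FPKM.

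Complex V, ATP synthase, held the lowest values among members. All 5 genes of its catalytic F1 head were lower after LSD1 siRNA, with a median log2 difference of -0.13 and a summed level of 1611 FPKM with LSD1 siRNA and 1843 FPKM with control siRNA. ATP5F1B, the catalytic beta subunit, was at 514 and 631 FPKM, a log2 difference of -0.30. ATP5F1A, the alpha subunit, was at 309 and 353 FPKM (-0.19), and ATP5F1E, the epsilon subunit, at 530 and 581 FPKM (-0.13). The gamma and delta subunits, ATP5F1C and ATP5F1D, were at 140 and 153 FPKM (-0.13) and at 119 and 125 FPKM (-0.07). No F1 gene was past 1.5-fold.

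The membrane part of ATP synthase was mixed. The c-ring, the rotor through which protons pass, is built from a subunit that ATP5MC1, ATP5MC2 and ATP5MC3 all encode. ATP5MC1 had the lowest value of all members other than the readthrough gene, at 63.6 FPKM with LSD1 siRNA and 81.9 FPKM with control siRNA, a log2 difference of -0.36. ATP5MC2, the most abundant of these 3, was at 351 and 325 FPKM, a log2 difference of 0.11, and ATP5MC3 was at 44.0 and 48.1 FPKM. Their sum was almost level, at 459 FPKM with LSD1 siRNA and 455 FPKM with control siRNA. Of the small membrane subunits ATP5ME, ATP5MF, ATP5MG, ATP5MJ and ATP5MK, 4 of 5 were higher, and ATP5ME was lower at 366 and 420 FPKM, a log2 difference of -0.20. Of the peripheral stalk, ATP5PD was at 182 FPKM with LSD1 siRNA and 220 FPKM with control siRNA (-0.28), and ATP5PO was at 174 FPKM in both libraries. ATP5IF1, the inhibitor of ATP hydrolysis by the complex, was at 151 and 143 FPKM, a log2 difference of 0.08.

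Genes that build or feed the complexes were counted from lists of known function, and their counts stand beside the 52.9% of all measured protein-coding genes that were lower, or 56.5% of those at 20 FPKM or more. Of 21 measured complex I assembly genes 16 were lower and 5 higher after LSD1 siRNA, with a median log2 difference of -0.13. NDUFAF2, an assembly chaperone, was at 20.02 FPKM with LSD1 siRNA and 27.4 FPKM with control siRNA, a log2 difference of -0.43, and NUBPL, which delivers iron-sulfur clusters, at 3.78 and 5.38 FPKM, a log2 difference of -0.42. Of 26 complex IV assembly genes 23 were lower, with a median of -0.07, and 1 was lower by 1.5-fold. That gene, COX14, which takes part in synthesis and assembly of the catalytic subunit COX1, fell to 35.9 FPKM with LSD1 siRNA, against 60.8 FPKM with control siRNA, a log2 difference of -0.74. The assembly genes of complexes II, III and V were balanced, with 7 of 15 lower and a median of 0.02. FMC1, an assembly factor of ATP synthase, was at 8.11 FPKM with LSD1 siRNA and 5.58 FPKM with control siRNA (0.47), and LYRM7, which matures the Rieske protein, was at 5.61 and 6.98 FPKM (-0.27).

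Of 13 citric acid cycle genes 12 were lower, with a median log2 difference of -0.14. CS, citrate synthase, was at 86.0 FPKM with LSD1 siRNA and 106 FPKM with control siRNA (-0.31), and FH, fumarase, at 41.1 and 54.8 FPKM (-0.41). Of 14 carrier and ubiquinone synthesis genes 9 were lower, with a median of -0.04, and their largest differences were -0.46 for COQ8A and -0.42 for PDSS1. Of 14 measured genes for mitochondrial transcription and biogenesis 12 were lower, with a median of -0.13. PPRC1, a coactivator of the PGC-1 family, had the largest difference there, at 6.91 and 9.19 FPKM (-0.37), followed by GABPA. Across these 6 lists COX14 was the 1 gene past 1.5-fold, and in the authors' deposited table no gene of them was called changed, counts near the background of 1.18% lower by 1.5-fold and 0.978% called.

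ChIP-seq was deposited as lists of called peaks, 11673 in the LNCaP LSD1 list, 9854 in the VCaP LSD1 list and 4460 in the LNCaP H3T6ph list, with hg19 coordinates and a score per peak from the authors whose scale is not stated. A peak was taken as near a gene at a distance of up to 20 kb from the gene's interval in the table. For LSD1 in VCaP 40 of 87 members (46.0%) had one, against 37.1% of protein-coding genes. For LSD1 in LNCaP 24 members (27.6%) had one, against 38% of protein-coding genes, and for H3T6ph 11 members (12.6%), against 16.7%. The members are short, with a median interval of 10.9 kb against 28.7 kb for protein-coding genes, so shares were also taken among short genes. Among genes with an interval under 20 kb the shares were 43.8% of 64 members against 27.5% of 7544 protein-coding genes for LSD1 in VCaP, 25% against 23.9% for LSD1 in LNCaP and 9.38% against 9.81% for H3T6ph. The distance between short members and short genes was thus widest in the VCaP list. When short genes were limited to those measured in LNCaP the shares were 42.4% of 59 members against 34.0% of 4130 protein-coding genes for LSD1 in VCaP, 25.4% against 29.5% for LSD1 in LNCaP, where the direction turned, and 10.2% against 11.3% for H3T6ph. It also turned for LSD1 in LNCaP over all genes at 50 kb, with 55.2% of members against 52.9%. Members at neighbouring loci share peaks, so they do not count as independent.

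**Figure D5:**
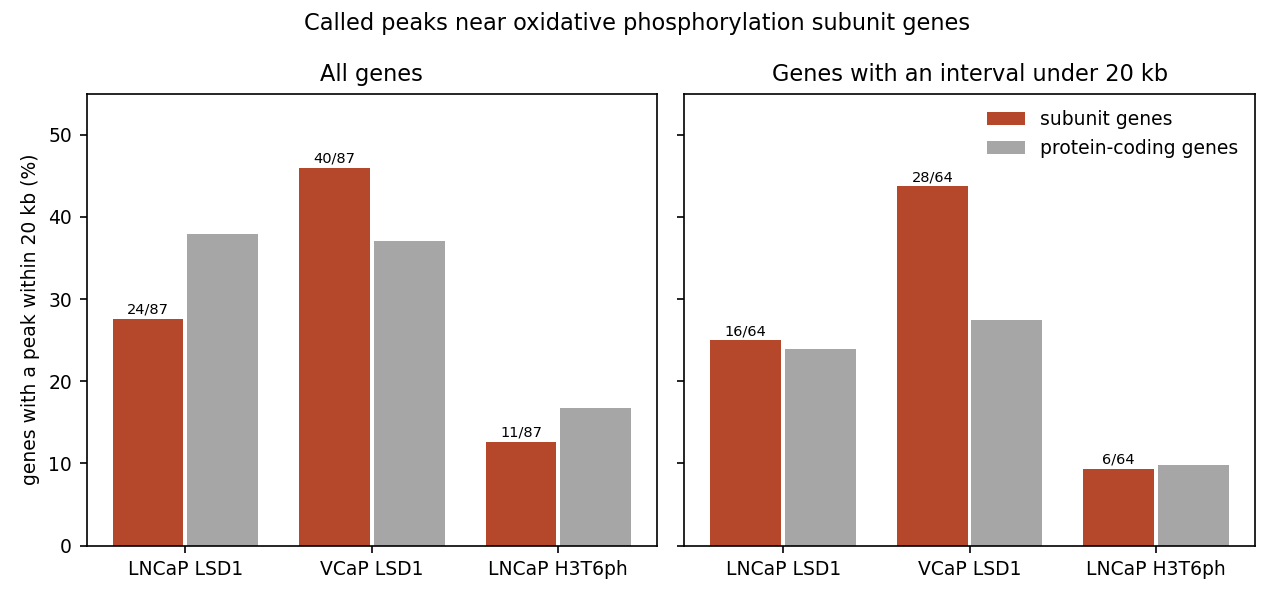
Share of genes (%) with a called peak within 20 kb of the gene interval, for oxidative phosphorylation subunit genes (red, with counts) and protein-coding genes of the table (grey), for all genes on the left and for genes with an interval under 20 kb on the right. In the right panel the red bar exceeds the grey one by the widest margin for LSD1 in VCaP (28 of 64 members, 43.8%, against 27.5%), and the pairs are close for the other lists.

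The members near LSD1 peaks differed between the cell lines in number. Of 87 members 16 had a peak of both LSD1 lists, 24 of the VCaP list alone and 8 of the LNCaP list alone. Over all protein-coding genes the numbers were 3554, 3359 and 3520 in the same order. Members with peaks of all 3 lists were ATP5MC2, NDUFC2 and NDUFC2-KCTD14, and the last 2 overlap each other. The best ranks of peaks near members were 814 in the LNCaP LSD1 list, 218 in the VCaP LSD1 list and 717 in the H3T6ph list. Cell line, culture and sequencing depth cannot be told apart in a comparison of these lists.

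For the 70 members with a strand from RefSeq, the start was taken as 1 end of the gene interval. Intervals can span neighbouring genes, so for some members this end need not be the gene's own start. The intervals of ATP5MG, ATP5PF and NDUFC1, for example, cover 59.2, 48.0 and 101 kb. Starts named for peaks below are interval ends in this sense, and the counts carry that uncertainty. Within 1 kb of that end, LSD1 in VCaP had a peak at 12 members (17.1%), against 12.1% of measured protein-coding genes. LSD1 in LNCaP had one at 6 members (8.57%), against 7.26%, and H3T6ph at 2 (2.86%), against 1.68%. At the far end of the interval there were 1, 0 and 0 such members.

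Peaks of LSD1 from both cell lines lay at the starts of ATP5MC2, NDUFA12 and UQCR11. At ATP5MC2 the LNCaP peak spanned chr12:54069368-54070369 with a score of 117.5 and the VCaP peak chr12:54069507-54070714 with a score of 93.0 (hg19). At NDUFA12, an accessory subunit of complex I, they spanned chr12:95397015-95397885 (70.9) and chr12:95396552-95397639 (93.3). NDUFA12 was at 78.3 FPKM with LSD1 siRNA and 84.2 FPKM with control siRNA. At UQCR11 the VCaP peak, chr19:1605556-1606825, had a score of 147.7, the highest near any member in that list, and the LNCaP peak, chr19:1605725-1606201, a score of 62.7. The sequence of the UQCR11 promoter shown above comes from the GRCh38 build and was not laid over these hg19 peaks. None of these 3 genes was past 1.5-fold after LSD1 siRNA.

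LSD1 peaks at the starts of COX5A, NDUFA2 and UQCRQ were in the LNCaP list alone. The peak at COX5A, chr15:75230419-75231011 (77.1), lay at the start of the gene with the lowest log2 difference of complex IV. In the VCaP list alone were the starts of NDUFS7, chr19:1382987-1384317 (79.8), and NDUFA3, chr19:54605486-54606894 (123.4), and those of NDUFA9, NDUFA11, NDUFB4, NDUFB6, NDUFB8, ATP5MJ and ATP5PO. ATP5F1B had no matched strand, and its VCaP peak, chr12:57038672-57040146 (78.1), overlapped an end of its interval. NDUFS7 and ATP5F1B, on opposite sides of 0 in LNCaP RNA, were thus both near VCaP peaks. Other peaks lay inside gene intervals away from the end taken as the start. These included peaks at ATP5F1A, ATP5F1C and ATP5F1E in the LNCaP LSD1 list and ATP5PB and ATP5PF in the VCaP list. Intervals can span overlapping or neighbouring genes, so such a peak can still lie at the gene's own start. H3T6ph had a peak at the start of COX8A, chr11:63742113-63742631 (54.1), a gene with a log2 difference of 0.14. Another, chr11:118229975-118230553 (55.8), overlapped the end taken as the start of the 59.2 kb interval of ATP5MG (log2 difference 0.09). That interval can span a neighbouring gene, so the peak cannot be placed at the ATP5MG start. A VCaP LSD1 peak, chr11:118271564-118272787 (63.3), lay inside the same interval.

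Differences in the LNCaP RNA were set side by side for members with and without a nearby peak. With an LSD1 peak in LNCaP the median log2 difference was -0.07 over 20 measured members (the readthrough gene left out here), against -0.03 over 58 without. With an LSD1 peak in VCaP it was -0.06 over 34, against -0.03 over 44. With an H3T6ph peak it was 0.09 over 10 members, with a range of -0.36 to 0.27, against -0.05 over 68 without. Over all measured protein-coding genes each of these medians was between -0.02 and -0.01. Members with the NRF1 letters had a median of -0.10 over 14, against -0.03 over 52 without. With the ETS letters it was -0.05 over 12, against -0.04 over 54, and with the YY1 letters -0.02 over 12, against -0.06 over 54.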

How the data were processed

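Per the labels' protocols, the TruSeq RNA kit v2 was used for RNA-seq and the ThruPLEX-FD kit for ChIP. Build hg19, Cuffdiff 2.0.1, TopHat2 2.0.4, Bowtie2 2.0.0 and MACS2 (no version) are named in the submitters' processing notes. Expression was deposited as FPKM per RefSeq accession, with the authors' p-value and q-value, per the file headers. The deposited peak lists hold the authors' score for every peak, on a scale that is not stated. The sources used here do not give the annotation version, control tracks or library scaling.

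Symbols were found for 38934 of 40253 accessions (96.7%) through RefSeq (GRCh38.p14). FPKM were summed per gene, and 42 genes with a failed accession were left out, no member among them. Differences used a pseudocount of 1 FPKM and a minimum of 1 FPKM in either library, and calls a fixed fold of 1.5 or 2, since 1 library per group allows no test. The files give no totals. Low values of olfactory receptor genes, whole fragments within 0.05, gave an estimated 25.5 M fragments with LSD1 siRNA (range 23.9 to 27.5) and 33.0 M with control siRNA (range 30.9 to 35.1), so 100 FPKM over 1 kb of effective length rested on about 2550 and 3300 fragments. Such depths cover counting error only, and the depth of the ChIP samples is unknown. Peak distances were taken from the gene interval in hg19, and promoter letters from RefSeq promoters. Scripts used pandas 2.3.3, numpy 2.4.6 and matplotlib 3.10.9 and were tested on simulated data.

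Named were, for each complex, the 3 highest and 3 lowest log2 differences, the 2 highest levels and the lowest, members past 1.5-fold, unmeasured members, tissue isoform pairs and members with peaks, plus members completing a role. Genes described beyond that rule, and the promoters printed, were chosen after their values were seen. Some results that the rule takes in are not reported here. The members and lists were chosen with earlier results of these data known. Alternatives changed the pseudocount, the minimum, the centring, the choice of accession, failed accessions, the peak distance, the score limit and the promoter window. Alternatives added after seeing the data left out readthrough genes or genes with long intervals.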

Additional observations from a re-analysis of the deposited data

How the results depend on the processing

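No paired analysis was possible because each group held 1 sample, and leaving out a replicate was likewise impossible. Of 144 values under alternatives 121 stayed within a tolerance and 23 moved: 0.1 on the log2 scale for medians, 1.5 times for counts and the 95% Wilson interval for shares. The tolerance for medians exceeds the medians themselves, so their ranges say more. The median log2 difference lay between -0.05 and -0.03 over the members and between -0.04 and -0.02 for complex I, and the share of members lower after LSD1 siRNA between 60.8% and 65.8%. With a pseudocount of 0.1 or 0.01 FPKM, 1 member was lower by 2-fold, ATP5MF-PTCD1, at -1.06 and -1.09. With a minimum of 5 FPKM, or without readthrough genes (added after seeing the data), 0 members were lower by 1.5-fold. With the most abundant accession in place of the sum, 1 member was higher by 1.5-fold and by 2-fold, NDUFC1, at 1.08. The share of members with a peak of LSD1 in LNCaP, LSD1 in VCaP and H3T6ph was 13.8%, 27.6% and 4.60% within 1 kb (25.1%, 24.3% and 10.6% of protein-coding genes), 16.1%, 29.9% and 6.90% within 5 kb (28.1%, 27.1% and 12.0%), and 55.2%, 58.6% and 25.3% within 50 kb (52.9%, 51.1% and 25.6%). Members were thus above all genes for LSD1 in VCaP at each distance. For LSD1 in LNCaP they were above at 50 kb alone. Limited to measured genes, members were lower for LSD1 in VCaP at 1 kb (27.8% against 28.8%) and 5 kb (30.4% against 31.7%). They were higher at 20 kb (44.3% against 41.9%) and 50 kb (57.0% against 56.5%). Among measured genes with an interval under 20 kb, members were higher at 1 kb (22.0% against 16.3%) and 5 kb (25.4% against 20.2%). For LSD1 in LNCaP at 50 kb, measured members were lower (55.7% against 58.0%). With the higher-scoring part of each list it was 13.8%, 35.6% and 4.60% (21.8%, 22.3% and 8.91% of protein-coding genes), and with equal numbers of top peaks it was 6.90% for LSD1 in LNCaP (17.3%) and 35.6% for LSD1 in VCaP (20.6%). In promoters limited to 100 bases before the start, NRF1 was in 8.57% of members against 4.68% of measured protein-coding genes, a smaller contrast than in the longer window, SP1 in 45.7% against 64.9% and the TATA letters in 4.29% against 4.26%. Counted per promoter in place of per gene, the SP1 shares in that window were 43.4% and 53.5%. Limits on all values are the lack of replicates, FPKM split among overlapping accessions by the authors' program, unstranded reads, pseudogene copies of many members, and peak lists that show called sites only.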
